A study of Mus musculus with 8 samples.

Results

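The genes of the myofibril, the contractile rod of striated muscle, were examined in subcutaneous tumors of mice given an antibody against PD-1 with or without Fusobacterium nucleatum. They were chosen by annotation, as the rows of the authors' deposited gene table whose cellular component field holds the Gene Ontology term myofibril, and 38 of the 752 rows of the table did so. The same 38 were found with a wider set of terms (sarcomere, Z disc, M band, A band, I band and the filaments of striated muscle). Every tumor was grown under the skin of a wild-type, germ-free C57B/L6 mouse from MC38, a mouse colon adenocarcinoma line, and was dissected on day 23. The control group of 4 tumors (11, 17, 18 and 19, replicates 1 to 4) came from mice treated with anti-PD-1 monoclonal antibody by intraperitoneal injection, which blocks an inhibitory receptor of T cells. The other 4 tumors (36, 37, 39 and 40, replicates 1 to 4) came from mice treated with the same antibody and with gavage of F. nucleatum ATCC-25586, an anaerobe that lives in the mouth and can be found in colorectal tumors. The question behind the design is what the bacterium does to tumors under this therapy. All tumors came from the same cell line, and no group without the antibody was analysed here.

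A myofibril is a chain of sarcomeres. In each sarcomere thick filaments of myosin slide past thin filaments of actin when calcium binds troponin. The thin filaments are anchored at the Z-disc, the thick filaments are tied together at the M-band, and titin spans from the former to the latter. Fast fibers and slow fibers of skeletal muscle use different genes for many of these parts, and the heart uses its own set. Myofibrils belong to striated muscle fibers and not to carcinoma cells, and the mouse has a thin sheet of skeletal muscle beneath its skin.

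Each row of the table had been selected on the very comparison described here, since every authors' p-value was at most 0.04995 and every absolute log2 difference was above 1. A gene of the sarcomere that the table does not list is therefore not analysed here, and the direction of the listed ones is given as a description. The limma adjusted p-values below were taken over these selected rows alone, so they can be too small. The table gives each gene as log2(normalized count + 1), called the log2 value below, and as FPKM, a fragment count divided by transcript length and library size. The normalized counts were whole multiples of a fixed step in each tumor, so reads could be recovered, and the reads in the 752 genes came to 97511 to 308139 per tumor. Odd numbers made up 71.5% of the 1253 recovered values from 3 to 15, against 53.8% of the whole numbers in that range, so a recovered read may not be an independent molecule. Separate mice are not stated for each library, and p-values measure the spread between these tumors.

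The sequences in front of 4 members are shown because the results below turn on 2 pairs of them: skeletal actin (Acta1) against cardiac actin (Actc1), and the fast myosins Myh4 and Myh1. They were taken from RefSeq's table for GRCm38.p6, which matched 28 of the 38 members in 30 windows of 250 bases before a start. The bases of an annotated GENCODE exon were left out, 12 for Actc1 and 50 for Myh1. Capitals mark a CArG box, CC followed by 6 A or T and then GG, in both actins and Myh4, and an A/T-rich MEF2 site in both myosins. The Acta1 window is chr8:123894776-123895025 (minus strand) and that of Actc1 is chr2:114052888-114053125 (minus strand). The Myh4 window is chr11:67237562-67237811 (plus strand) and that of Myh1 is chr11:67199852-67200051 (plus strand), and each is written 5′ to 3′.
Acta1: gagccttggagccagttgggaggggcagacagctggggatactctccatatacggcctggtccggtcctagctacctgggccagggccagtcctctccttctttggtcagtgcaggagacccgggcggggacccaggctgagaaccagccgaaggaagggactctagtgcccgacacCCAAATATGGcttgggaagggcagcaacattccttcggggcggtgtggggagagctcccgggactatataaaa
Actc1: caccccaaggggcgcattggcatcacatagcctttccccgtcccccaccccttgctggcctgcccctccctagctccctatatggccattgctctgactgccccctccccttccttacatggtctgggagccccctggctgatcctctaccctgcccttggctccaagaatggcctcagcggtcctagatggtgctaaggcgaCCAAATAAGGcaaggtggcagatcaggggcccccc
Myh4: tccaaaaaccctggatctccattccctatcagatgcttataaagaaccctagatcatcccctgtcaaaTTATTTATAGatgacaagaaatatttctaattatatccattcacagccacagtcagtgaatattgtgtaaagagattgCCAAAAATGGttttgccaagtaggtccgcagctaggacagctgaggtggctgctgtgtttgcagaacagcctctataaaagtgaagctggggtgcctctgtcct
Myh1: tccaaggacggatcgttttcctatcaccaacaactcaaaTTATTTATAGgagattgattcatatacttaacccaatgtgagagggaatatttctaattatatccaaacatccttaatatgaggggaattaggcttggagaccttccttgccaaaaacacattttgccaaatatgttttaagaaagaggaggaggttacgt

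The CArG box, the sequence bound by serum response factor, lay 73 bases before the RefSeq start of Acta1, 47 before that of Actc1 and 104 before that of Myh4, counted from the first base of the box. The MEF2 site read the same in Myh4 and Myh1, 182 and 211 bases before the start. Over both strands, CArG boxes were found in 6 of the 30 windows (20.0%) of members, those of Acta1, Actc1, Ldb3, Myh4 and Myom1, against 1.47% of all 32851 windows. MEF2 sites, which muscle transcription factors of that name bind, were in 4 windows (13.3%), those of Myh1, Myh4, Ttn and Xirp2, against 2.92%. The E-box CANNTG, the site of the myogenic factors, was in 76.7% of members' windows against 66.2% of all, and the MCAT box CATTCC or its reverse GGAATG in 9 of the 30 against 12.6%. A match of letters shows no binding, and a start in RefSeq can differ from that in GENCODE, as it does for Myh4.

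Myofibril RNA was concentrated in a single tumor of the F. nucleatum group. The summed FPKM of the 38 genes was 2.91, 2.24, 2.74 and 4.49 in the anti-PD-1 tumors 11, 17, 18 and 19, and 444.2, 22.8, 5.41 and 3.28 in tumors 36, 37, 39 and 40. Tumor 36 was thus far above all others, tumor 37 was second, tumor 39 lay just above the control range, and tumor 40 lay inside it. In tumor 36 these genes took 28.8% of the table's reads, 88624 in all, and in the other 7 tumors 0.252% to 1.60%.

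Of the 38 genes, 36 had their highest log2 value in tumor 36 (94.7%, against 14.8% of all genes in the table). The exceptions were Slc4a1, highest in tumor 37, and Actc1, highest in control tumor 19. Tumor 37 came second for 25 of the 36, and a median of 90.2% of a gene's normalized counts over the 8 tumors lay in tumor 36, with a range of 48.2% to 100% among them. For 18 members at least 90% of the counts lay there (47.4%, against 4.52% of all genes), and for 29 tumors 36 and 37 together held as much. In bulk RNA, fewer cells of a type and less RNA per cell cannot be told apart.

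**Figure D1:**
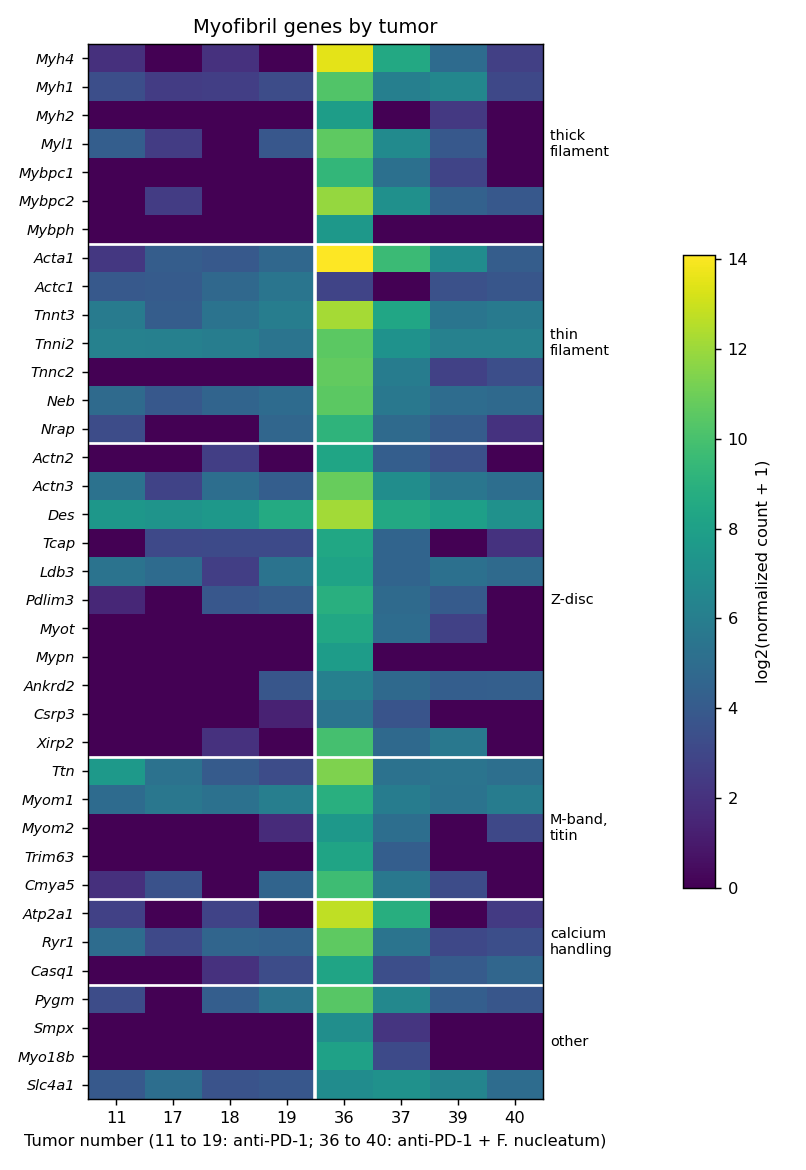
Log2(normalized count + 1) of 37 of the 38 myofibril genes (vertical axis, grouped by role) in each of the 8 tumors (horizontal axis, by tumor number), with colour for the value. Tumor 36 has the highest value in 35 of the 37 genes shown, and Actc1 is the gene with its highest value in a control tumor.

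**Figure D2:**
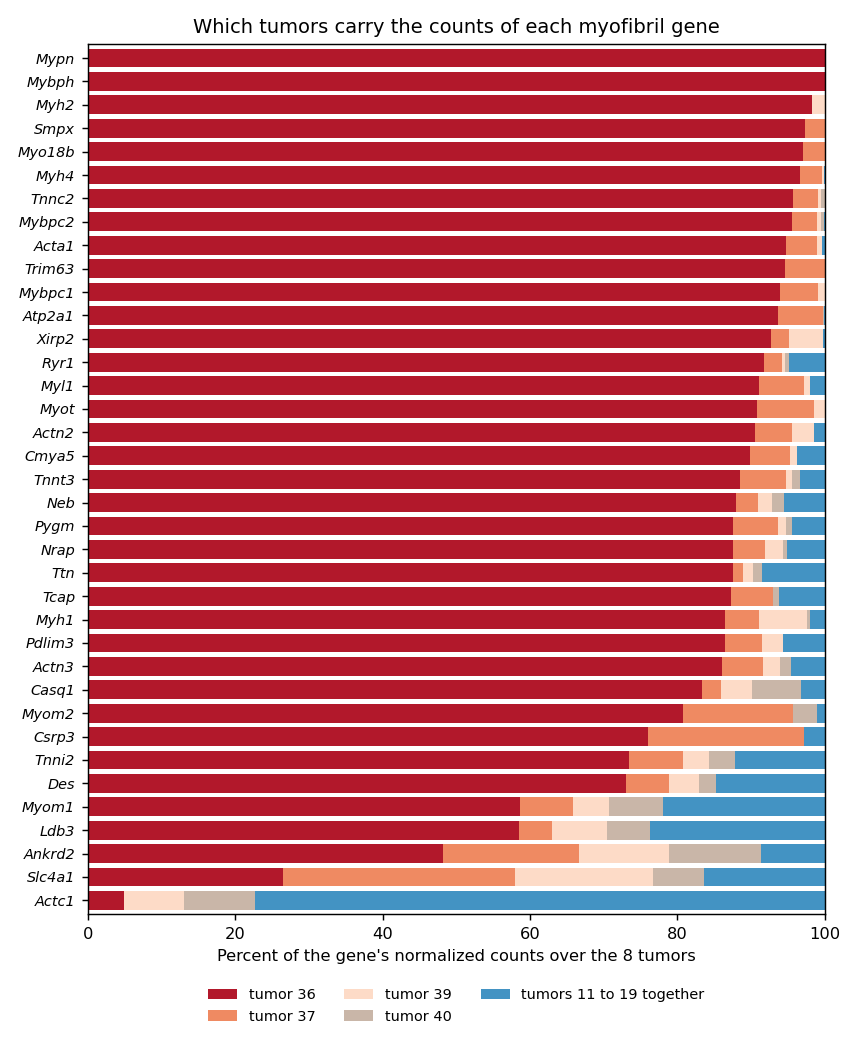
For each of 37 genes (vertical axis), the percentage of its normalized counts over the 8 tumors (horizontal axis) that lay in each F. nucleatum tumor and in the control tumors. At least 90% lay in tumor 36 for 17 of the 37 genes shown.

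Between the groups, 37 members had a higher mean log2 value with F. nucleatum (97.4%, against 53.1% of all genes) and Actc1 a lower one. The median difference over the 38 was 2.70 on the log2 scale, and 3.21 with the 9 genes at 0 in all control tumors set to their lower bound, a floor of 3 reads over the group. It was 1.18 over all 752 genes and 1.94 over all higher genes. None of these differences held against the spread between tumors: limma on the log2 values of the whole table called 0 members (0.0% of all genes) at an adjusted p under 0.05, and the smallest adjusted p was 0.0932. Without adjustment, 15 members had a limma p under 0.05 (39.5%, against 43.0% of all genes), a share near that of the table. Without tumor 36 limma called 2 members, Mybpc2 and Tnnc2, and without tumors 36 and 37 it called Tnnc2 alone. The shares of all genes called without these tumors are not given here.

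The authors' deposited table gives 11 members an FDR under 0.05, all higher with F. nucleatum (28.9%, against 15.2% of all genes for higher calls and 6.25% for lower ones). They were the myosins Myh4, Myh1 and Myh2, the myosin-binding genes Mybpc2 and Mybph, Acta1, Tnnc2, Mypn, Trim63, Myo18b and Slc4a1. For 9 of the 11, at least 90% of the counts lay in tumor 36, and the others were Myh1, at 86.5%, and Slc4a1, at 26.4%. All 4 tumors with F. nucleatum lay above all 4 controls for 5 members, Myh4, Mybpc2, Tnnc2, Ankrd2 and Casq1 (13.2%, against 7.18% of all genes), and all 4 lay below for Actc1 (2.63%, against 12.4%). Without tumor 40 the 2 directions together gave 16 members in place of 6. The share of all genes without tumor 40 is not given here, and fewer tumors make such separation easier for any gene.

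Leaving out tumor 36 lowered the median difference from 2.70 to 1.22, while that of all higher genes was 2.002 in its absence. Of the 37 higher members, 33 were still higher, Ryr1 and Tcap were lower, and Mybph and Mypn, with no read outside tumor 36, showed no difference. Leaving out tumors 36 and 37 gave a median of 0.41, against 0.92 for all higher genes, with 24 members higher, 8 lower and 5 without a difference. All 37 higher members exceeded every control tumor in tumor 36, 29 did so in tumor 37, 16 in tumor 39 and 6 in tumor 40. For all higher genes of the table these shares were 62.7%, 79.4%, 43.6% and 41.1%.

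**Figure D3:**
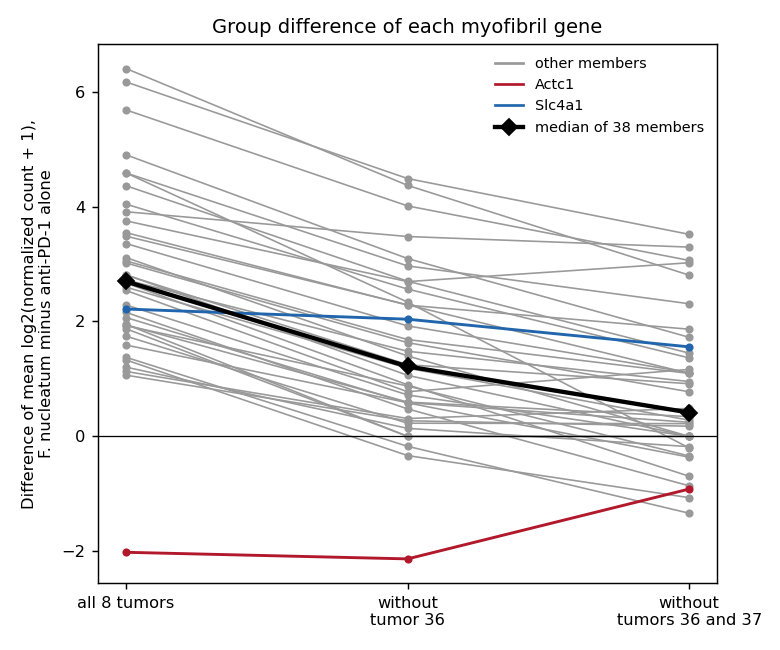
Difference of the mean log2 value, F. nucleatum minus anti-PD-1 alone (vertical axis), for each of the 38 genes (lines) with all tumors, without tumor 36, and without tumors 36 and 37 (horizontal axis), with the median in black. The median goes from 2.70 to 1.22 and 0.41.

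Myh4 and Mybpc2, both of the thick filament, had the largest log2 differences of the 38 genes, while the median of the 7 thick filament genes, 3.55, was below the 3.75 of the 3 calcium handling genes. Myh4 encodes myosin heavy chain IIb of the fastest glycolytic fibers, and its FPKM was 0.00517, 0, 0.00531 and 0 in tumors 11, 17, 18 and 19, and 31.2, 0.923, 0.0771 and 0.0109 in tumors 36, 37, 39 and 40. The 4 tumors with F. nucleatum did not overlap the controls, with 14432 reads in tumor 36 and 5 in tumor 40, beside at most 3 reads in a control. The difference in mean log2 value was 6.40 (SE 2.43, n = 4 tumors each), with a limma adjusted p of 0.0932. It was 4.37 without tumor 36 and 2.81 without tumors 36 and 37.

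Myh1, the IIx heavy chain, had an FPKM of 0.0235, 0.0078, 0.0101 and 0.0197 in the controls and of 3.17, 0.160, 0.231 and 0.0153 in tumors 36, 37, 39 and 40. Tumors 36, 37 and 39 exceeded every control, and tumor 40 lay among the controls. The log2 difference was 3.55 (SE 1.50, limma adjusted p = 0.09996). Myh2, the IIa heavy chain of fast oxidative fibers, had reads in tumor 36 (282, 0.514 FPKM) and tumor 39 (5, 0.00721 FPKM) and was at 0 in the other 6. These 3 genes lie side by side on chromosome 11 and resemble each other: 18.9% of the 50-base words of Myh4, 26.7% of Myh1 and 26.9% of Myh2 also occur in transcripts of other genes, so reads could be split between them.

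Mybpc2, the fast form of myosin-binding protein C, was also higher in all 4 tumors, with 16.5, 0.565, 0.0851 and 0.0544 FPKM in tumors 36, 37, 39 and 40. In the controls it had 3 reads in tumor 17 (0.0137 FPKM) and none elsewhere. Its log2 difference was 6.17 (SE 1.92, limma adjusted p = 0.0932) and 4.49 without tumor 36, where the limma adjusted p was 0.0403. With any other single tumor left out the limma adjusted p was 0.117 to 0.162, and the gene itself was selected on these same tumors. Mybpc1, called the slow form though fast fibers also use it, was at 0 in every control and in tumor 40, and had 2.33, 0.121 and 0.0201 FPKM in tumors 36, 37 and 39.

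Myl1, the essential light chain of fast myosin, had 12.2 FPKM in tumor 36 and 0.770 in tumor 37. Tumors 39 and 40, at 0.09997 and 0 FPKM, lay within the control range of 0 to 0.128. Without tumors 36 and 37 its log2 difference was -0.69 in place of 2.67. Mybph, myosin-binding protein H, named here after its values were seen, had 224 reads in tumor 36 and none in any other tumor. Exons of Adora1 on the opposite strand share 49.9% of the exon bases of Mybph.

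Among thin filament genes, Acta1, the actin of skeletal muscle, was the most abundant myofibril gene of tumor 36. Its FPKM was 0.0365, 0.161, 0.135 and 0.251 in tumors 11, 17, 18 and 19, and 184, 7.85, 1.16 and 0.167 in tumors 36, 37, 39 and 40. Tumors 36, 37 and 39 exceeded all controls, and tumor 40 fell between tumors 17 and 19. The log2 difference was 4.90 (SE 2.19, limma adjusted p = 0.09996), and 1.72 without tumors 36 and 37.

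Actc1, the cardiac actin that developing skeletal muscle also uses, was the exception. Its FPKM was 0.136, 0.138, 0.247 and 0.423 in the controls and 0.0621, 0, 0.0959 and 0.111 in tumors 36, 37, 39 and 40. Every control lay above every F. nucleatum tumor, although the whole difference rested on 107 reads against 33. The log2 difference was -2.02 (SE 0.94, limma adjusted p = 0.113, from 10 to 56 reads per control). In tumor 36 the FPKM of Acta1 was 2967 times that of Actc1, which had 8 reads there (95% exact interval 1505 to 6873). With 2 recovered reads counted as 1 independent unit the interval was 1158 to 10891. In the controls the ratio of Acta1 to Actc1 was 0.268 to 1.17. It was 12.1 in tumor 39 and 1.50 in tumor 40, and tumor 37 had no Actc1 read. Actc1 is the 1 gene of a list of 10 cardiac isoforms that the table holds, and the others are not analysed here.

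The 3 fast troponin genes, which form the calcium switch, differed in their background. Tnnc2, fast troponin C, was at 0 in all 4 controls and had 2070, 51, 7 and 9 reads (33.8, 1.13, 0.0978 and 0.164 FPKM) in tumors 36, 37, 39 and 40. Its log2 difference was 5.68 (SE 1.81, limma adjusted p = 0.0932), and 3.06 from tumors 39 and 40 alone (limma adjusted p = 0.00117), which rests on 7 and 9 reads. That choice of tumors was made after seeing the data, and the gene itself was selected on these same tumors. Exons of Ube2c on the opposite strand share 74.0% of the exon bases of Tnnc2, and the counting is not stated to use strand.

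Tnnt3 and Tnni2, fast troponins T and I, had reads in every tumor. Tnnt3 had 0.563, 0.156, 0.374 and 0.562 FPKM in the controls and 47.7, 3.08, 0.403 and 0.511 in tumors 36, 37, 39 and 40, so that tumors 39 and 40 lay within the control range. Tnni2 had 0.426 to 0.724 FPKM in the controls and 16.0, 1.50, 0.733 and 0.695 with F. nucleatum, where tumor 39 lay just above that range and tumor 40 inside it. Their log2 differences were 2.60 (SE 1.60) and 1.59 (SE 1.05), and 0.28 and 0.25 without tumors 36 and 37.

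Nebulin (Neb), the ruler of the thin filament, and the nebulin-related anchoring protein Nrap are named after their values were seen. Neb had 0.902 FPKM in tumor 36 and 0.0149 to 0.0284 in the other F. nucleatum tumors, against 0.00743 to 0.0172 in the controls. Nrap had 1.66 FPKM in tumor 36 and at most 0.0766 elsewhere. Thin filament genes thus summed to 284 FPKM in tumor 36, 13.7 in tumor 37 and 2.56 and 1.67 in tumors 39 and 40, against 1.15 to 1.75 in the controls.

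The 11 Z-disc genes were all highest in tumor 36, with a median log2 difference of 2.07. Desmin (Des), the intermediate filament around the Z-disc, had the most RNA among them and is also made by smooth muscle and pericytes. Its FPKM was 0.732, 0.638, 0.752 and 1.63 in the controls and 19.2, 1.48, 1.03 and 0.559 with F. nucleatum, so that tumors 37 and 39 lay within the control range and tumor 40 below it. The log2 difference was 1.21 (SE 1.14, limma adjusted p = 0.270).

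Actn3, the alpha-actinin of fast glycolytic fibers that crosslinks actin, had 0.0293 to 0.214 FPKM in the controls and 10.0, 0.631, 0.244 and 0.169 with F. nucleatum. Actn2, the alpha-actinin of all fibers and the heart, had 5 reads in control tumor 18 and none in the others, and 394, 15, 13 and 0 reads (1.35, 0.0640, 0.0411 and 0 FPKM) with F. nucleatum. Where both were detected, the FPKM ratio of Actn3 to Actn2 was 10.1 in control tumor 18 (95% exact interval 3.25 to 27.6, from 32 and 5 reads), 7.45 in tumor 36 (6.69 to 8.32), 9.86 in tumor 37 (5.17 to 16.5) and 5.93 in tumor 39 (3.11 to 11.5). The intervals cover counting error only, and those of these 4 tumors overlap.

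Telethonin (Tcap), which caps titin in the Z-disc, had 0, 0.104, 0.118 and 0.128 FPKM in the controls and 5.70, 0.343, 0 and 0.0346 with F. nucleatum. Tumors 39 and 40 were within the control range, and the log2 difference of 1.38 became -0.17 without tumor 36. Myotilin (Myot), an actin-bundling Z-disc protein, was at 0 in all controls and had 2.60, 0.207, 0.0354 and 0 FPKM with F. nucleatum. Its log2 difference was 4.04 (SE 1.79, limma adjusted p = 0.101).

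The other Z-disc members of the slow list had few reads. Ankrd2, a muscle ankyrin repeat protein of slow fibers, had 0, 0, 0 and 0.168 FPKM in the controls and 0.984, 0.356, 0.247 and 0.238 with F. nucleatum. Every F. nucleatum tumor was above every control, only 48.2% of its counts lay in tumor 36, and the log2 difference of 3.91 (SE 1.04, limma adjusted p = 0.0932) was 3.29 without tumors 36 and 37. It had 17 to 87 reads per F. nucleatum tumor and 16 in tumor 19. Csrp3, the muscle LIM protein, had 52 and 10 reads in tumors 36 and 37, 2 in tumor 19 and none in the other 5.

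Of the Z-disc genes named after their values were seen, myopalladin (Mypn) had 277 reads in tumor 36 and none elsewhere. Xirp2, an actin-binding repeat protein, had 1.10 FPKM in tumor 36, 0.0277 in tumor 37 and 0.0525 in tumor 39, and 3 reads in control tumor 18 alone. Ldb3 and Pdlim3, both binders of alpha-actinin, had log2 differences of 1.13 (SE 1.06) and 2.07 (SE 2.07). Tumors 37, 39 and 40 lay within the control range of Ldb3, which had 0.0105 to 0.103 FPKM in the controls and 0.751 in tumor 36.

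In tumor 36, M-band genes and titin had the lowest summed FPKM of the roles, at 4.54, which did not hold in the controls. Titin (Ttn), whose longest transcript has 106824 bases, had 0.358 FPKM in tumor 36, from 3239 reads, and 0.00432 to 0.00551 in the other F. nucleatum tumors. Control tumor 11 stood above those 3, at 0.0263 FPKM from 201 reads, and the other controls had 0.00107 to 0.005. The log2 difference was 1.74 (SE 1.79, limma adjusted p = 0.287).

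Myomesin 1 (Myom1), which crosslinks myosin at the M-band, had 0.0451 to 0.0957 FPKM in the controls and 0.737, 0.0855, 0.0594 and 0.0839 with F. nucleatum, so that the last 3 were within the control range. Trim63, the ubiquitin ligase MuRF1 that is induced in muscle atrophy, was at 0 in every control and in tumors 39 and 40, and had 379 and 15 reads (1.73 and 0.0899 FPKM) in tumors 36 and 37. Cmya5, myospryn, had 1.14 and 0.0647 FPKM in tumors 36 and 37, while tumors 39 and 40, at 0.0109 and 0, lay within the control range of 0 to 0.0282. Exons of another gene on the opposite strand share 20.7% of the exon bases of Cmya5.

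Myom2, the myomesin of fast fibers, named after its values were seen, had 226, 29, 0 and 7 reads in tumors 36, 37, 39 and 40 and 3 in control tumor 19.

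Atp2a1, Casq1 and Ryr1 handle calcium in the sarcoplasmic reticulum. Atp2a1, the calcium pump SERCA1 of fast fibers, had 31.7 and 1.99 FPKM in tumors 36 and 37. In tumors 39 and 40, at 0 and 0.0158 FPKM, it did not exceed the controls, which had 0 to 0.0246. Its log2 difference of 4.59 (SE 3.03, limma adjusted p = 0.125) was -0.20 without tumors 36 and 37, and 21.9% of its exon bases are shared with Rabep2 on the opposite strand.

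Casq1, the calcium store of fast fibers, showed another order among the tumors. It had 0, 0, 0.0163 and 0.0642 FPKM in the controls and 2.50, 0.0659, 0.119 and 0.188 in tumors 36, 37, 39 and 40, so that tumors 39 and 40 stood above tumor 37. The 4 did not overlap the controls, and the log2 difference was 3.75 (SE 1.36, limma adjusted p = 0.0932), and 3.02 without tumors 36 and 37. The numbers outside tumor 36 were small, 8, 19 and 23 reads, against 11 in the highest control. Ryr1, the calcium release channel, named after its values were seen, had 1.16 FPKM in tumor 36. In tumors 39 and 40, at 0.00473 and 0.0059 FPKM, it was below 3 of the 4 controls by FPKM.

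The remaining 4 members were Pygm, Smpx, Myo18b and Slc4a1. Pygm, the glycogen phosphorylase of muscle, named after its values were seen, had 6.85 and 0.443 FPKM in tumors 36 and 37. In tumors 39 and 40 it had 0.0872 and 0.0537 FPKM, within the control range of 0 to 0.204. Smpx, a small muscle protein, and Myo18b, an unconventional myosin of the sarcomere, had 157 and 333 reads in tumor 36, 3 and 7 in tumor 37 and none in the other 6.

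Slc4a1, band 3 of the red blood cell membrane, named after its values were seen, carries the term but is no contractile protein. Its FPKM was 0.0447, 0.1004, 0.0326 and 0.0410 in the controls and 0.381, 0.436, 0.261 and 0.0926 with F. nucleatum. Tumor 37 was the highest, tumors 36 and 39 were next, and tumor 40 lay below control tumor 17. The log2 difference was 2.22 (SE 0.58, limma adjusted p = 0.0932) and was 1.56 without tumors 36 and 37. The 7 red blood cell genes of the table, Slc4a1 among them, were likewise all highest in tumor 37, with a summed FPKM of 358 to 658 in the controls and 582 to 1457 with F. nucleatum.

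Among the members on the 2 isoform lists, those of the fast list held most of the FPKM in every tumor, but the table holds few genes of the slow list. Of the slow members, Mybpc1 and Actn2 are not confined to slow fibers. Of the 38 members, 11 are on the list of fast fiber isoforms (Myh1, Myh2, Myh4, Myl1, Mybpc2, Tnnt3, Tnni2, Tnnc2, Actn3, Atp2a1 and Casq1) and 4 on that of slow fiber isoforms (Mybpc1, Actn2, Ankrd2 and Csrp3). The table holds 13 of the 14 genes of the fast list and 4 of the 14 of the slow list, so that the slow myosin heavy chain and the slow troponins are not analysed here. Summed FPKM of the fast members was 205 in tumor 36, 10.8 in tumor 37, 2.10 in tumor 39 and 1.82 in tumor 40, against 0.920 to 1.68 in the controls.

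Slow members summed to 4.91, 0.605, 0.308 and 0.238 FPKM in tumors 36, 37, 39 and 40, and to 0, 0, 0.0169 and 0.177 in tumors 11, 17, 18 and 19. The fast share of fast plus slow FPKM was therefore 97.7%, 94.7%, 87.2% and 88.4% with F. nucleatum, and 100%, 100%, 98.6% and 87.7% in the controls. These ranges overlap. Since the slow genes of the table were selected for being higher with F. nucleatum, the share describes the listed genes and not the fiber types of a muscle. By reads, tumor 17, with 68 fast and 0 slow, has a share of at least 94.7% (95% exact interval), tumor 11, with 213 and 0, of at least 98.3%, and tumor 19, with 193 and 18, of 86.9% to 94.9%.

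**Figure D4:**
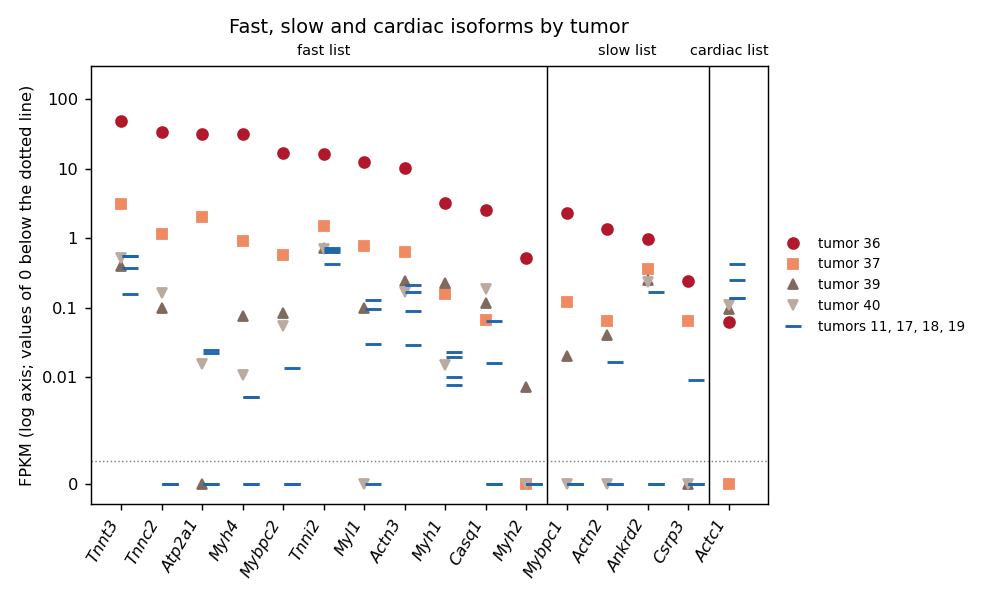
FPKM (vertical log axis, values of 0 drawn below the dotted line) of the fast, slow and cardiac isoforms (horizontal axis) in each F. nucleatum tumor (symbols) and the 4 control tumors (blue dashes). Tumor 36 has the highest value of every fast and slow isoform, while Actc1 is highest in control tumors.

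The relation of the fast myosins to each other differed between tumors. In tumor 36 the FPKM of Myh4 was 9.85 times that of Myh1 (95% exact interval 9.35 to 10.4), and in tumor 37 it was 5.76 times (4.31 to 7.74). In tumor 39 the order was turned, at 0.334 (0.228 to 0.497, from 37 and 115 reads). Counting 2 recovered reads as 1 independent unit widened the intervals to 3.78 to 8.72 in tumor 37 and 0.195 to 0.590 in tumor 39, which still did not overlap. Tumor 40, with 5 and 7 reads, gave 0.711 (0.189 to 2.76). Among the controls, tumors 11 and 18 gave 0.220 and 0.526 from 3 Myh4 reads each, and tumors 17 and 19 had no Myh4 read.

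**Figure D5:**
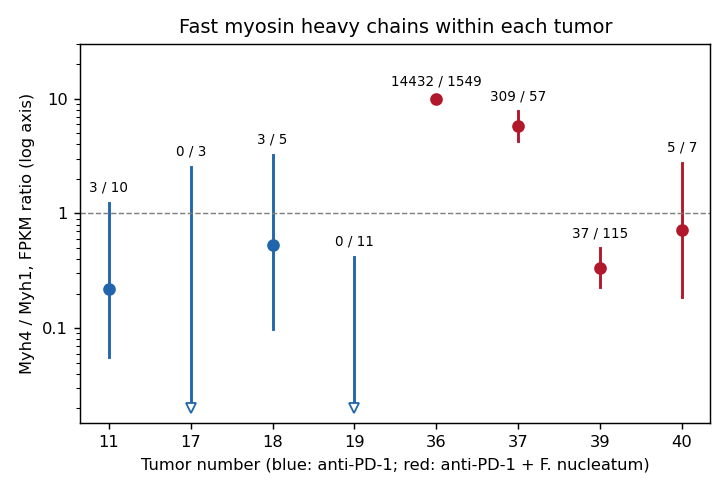
FPKM ratio of Myh4 to Myh1 (vertical log axis) in each tumor (horizontal axis), with 95% exact intervals from the recovered reads, which cover counting error only. The ratio is 9.85 in tumor 36 and 5.76 in tumor 37, and 0.334 in tumor 39.

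The levels of the members relative to each other were alike in tumors 36 and 37. Across the 36 members highest in tumor 36, log2(FPKM + 0.01) had a Pearson correlation of 0.913 between these tumors. It was 0.663 between tumors 36 and 39, 0.590 with tumor 40, and 0.490 and 0.445 with control tumors 17 and 19. Each gene has the same length in both tumors, and genes are not independent replicates. Among these 36 members, the FPKM in tumor 37 was a median of 5.07% of that in tumor 36, from 0% to 36.2%, the highest being Ankrd2. Long genes were lower per length in tumor 36, with a Spearman correlation of -0.55 between the length of the longest transcript and FPKM, while length and reads had one of 0.05 (n = 36 genes). Between length and the FPKM of tumor 37 as a percentage of that in tumor 36 it was -0.42.

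Genes that mark other tissues were also high in particular tumors. The 18 skin and keratinocyte genes of the table, of a list of 24, were all highest in tumor 37, where they summed to 389.8 FPKM, against 1.56 to 2.79 in each of the other 7 tumors, tumor 36 included. Krt1, Krt5 and Krt10, keratins of the epidermis, are named after their values were seen. Krt1 and Krt5 were at 0 in every tumor but 37, while Krt14 had 5 reads and Krt10 had 66 in tumor 36. Outside tumors 36 and 37, Krt14 had no read and Krt10 had 37 to 101. The 7 T cell genes of the table were lower with F. nucleatum, from 2.99 to 8.26 FPKM in the controls to 0.611 to 2.61. Lists of adipocyte (12 genes) and of Schwann cell or neuron markers (11 genes) had 0 genes in the table and are not analysed here. The part of these tissues in the values of the myofibril genes was not tested.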

How the data were processed

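The 8 libraries were strand-specific (TruSeq, from TRIzol RNA), per the labels' protocols. STAR 2.5, DESeq 1.22.1, Cuffnorm and FastQC are listed in the submitters' processing notes beside mm10, without saying what each did. For each of 752 genes the authors' deposited table holds a log2 value (log2 of a normalized count plus 1) and an FPKM value per tumor, a log2 difference, a p-value and an FDR. How the authors computed that p-value is not given in the labels or headers. Library totals are unknown. Dividing each deposited normalized count by its step gave whole reads for 100% of values within 0.1 read. The size factors are 0.644 to 1.27.

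Groups followed the labels, and replicate numbers are names in accession order. A moderated linear model with a variance trend (limma 3.58.1, R 4.3.3) was fitted to the log2 values of all 752 genes with Benjamini-Hochberg adjustment, at an adjusted p under 0.05. It was tested on simulated data. Each SE belongs to a difference between means of 4 log2 values. Intervals are exact binomial (95%) and cover counting error only. Members and gene lists were chosen with earlier results of these data known. Named with values were all members of the fast, slow and cardiac isoform lists, up to 4 members with the highest mean FPKM for each of thick filament, thin filament, Z-disc, M-band with titin, and no list, and up to 2 genes from each other list. The values of 1 member are counted in the summaries but not reported here by name. Genes outside this rule are said to be named after their values were seen. Positions and exons came from GENCODE M21 on GRCm38, where all 38 members matched, and 18 of them share exon bases with a gene on the opposite strand. Alternatives were log2(FPKM + 1), log2(FPKM + 0.1), a mean of at least 1 FPKM, median centring, limma without trend, with array weights or as voom on the recovered reads, an FDR under 0.01, wider terms, other forms of the fast share, and each tumor left out. Leaving out tumors 36 and 37 together was added after seeing the data. The rest ran in Python 3.11.15 (matplotlib 3.10.9, scipy 1.17.1, pandas 2.3.3, numpy 2.4.6).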

Additional observations from a re-analysis of the deposited data

Results flagged for a closer look

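Of 73 groups of 4 values examined for a value far from the rest (a gap to its nearest neighbour above Dixon's 95% critical share of the group's range), 15 had such a value. Chance gives this in about 1 of 20 groups, and a group with a value in 1 tumor and 0 in the others always meets it. Among the F. nucleatum tumors, tumor 36 stood apart each time. Its log2 value was 11.34 for Ttn (next 5.42), 10.54 for Neb (next 5.67) and 8.90 for Myom1 (next 5.91). It was 7.80 for Mypn and 7.50 for Mybph, both at 0 in the other 3. The summed FPKM of the members was 444.2, with 22.8 next.

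Among the anti-PD-1 tumors the values were low and lay in different tumors. In tumor 19 the log2 value was 3.77 for Ankrd2, 1.37 for Csrp3 and 1.75 for Myom2, all at 0 in the other 3, and the fast share of FPKM was 87.7% beside a next value of 98.6%. In tumor 18 it was 2.60 for Actn2 and 2.02 for Xirp2, at 0 in the others, and 2.60 for Ldb3, below a next value of 4.93. Mybpc2 had 2.50 in tumor 17 and 0 elsewhere, and Tcap had 0 in tumor 11 beside 3.13 or more in the rest.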

How the results depend on the processing

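Limma called 0 members at an adjusted p under 0.05 on log2(FPKM + 1), on log2(FPKM + 0.1), with a mean of at least 1 FPKM, without trend and by voom on the recovered reads. It called 5 with median centring (Myh4, Mybpc2, Acta1, Tnnc2 and Ankrd2), which lowers every difference by 0.61 (a shift of -0.61), 7 with array weights, and 0 to 2 with each tumor left out. The 2 came without tumor 36, and 1 was called without tumors 36 and 37, a choice made after seeing the data. The cause was not tested. The share of all genes called is given for the main fit only. These numbers are thus not read as particular to the members. The median log2 difference was 1.22 to 3.63 with each tumor left out, 2.08 with centring, 3.65 for the 10 members with a mean of at least 1 FPKM, 1.19 on log2(FPKM + 0.1) and 0.35 on log2(FPKM + 1). The number of members without overlap was 3 with the FPKM minimum, where fewer genes remain, 4 with median centring, and 6 to 16 with each tumor left out, and that with an authors' FDR under 0.05 was 4 with the minimum. Shares of all genes under these settings are not given here, and fewer tumors make separation easier for any gene.

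The fast share of tumor 36 was 97.0% by normalized counts, 98.0% over all genes of both lists and 98.4% without the highest fast and slow gene. It was 95.9% in tumor 37 over all genes of both lists. In tumors 39 and 40 it was 90.8% and 92.5% by normalized counts and 91.2% and 92.3% over all genes of both lists. Without the highest genes it was 84.6% in tumor 40 and 79.8% in tumor 19; the cause was not tested. With each tumor left out, the log2 difference ranged from -0.17 to 2.62 for Tcap and from -0.33 to 2.19 for Ryr1, and the negative values came without tumor 36. Without tumors 36 and 37 the log2 differences of Myl1 (-0.69), Des (-0.18), Tcap (-1.34), Pdlim3 (-0.36), Csrp3 (-0.34), Cmya5 (-0.86), Atp2a1 (-0.20) and Ryr1 (-1.07) were negative. No member changed direction under the scales, the centring or the omission of any tumor other than 36. No paired analysis was possible because the labels do not match tumors between the groups. Depth limits most values outside tumors 36 and 37, where a member often has fewer than 30 reads.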

Other observations

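Contractile, calcium and energy genes of muscle without the myofibril term were highest in tumor 36. They were named by the same rule except Mylpf, Mb and Trdn, which were named after their values were seen. Ckm, the creatine kinase of muscle that buffers ATP, had 0 to 0.101 FPKM in the controls and 24.9, 1.22, 0.0178 and 0.0331 in tumors 36, 37, 39 and 40. Mylpf, the regulatory light chain of fast myosin, had 0.525 to 0.887 FPKM in the controls and 26.3, 2.67, 1.11 and 1.04 with F. nucleatum, so that every F. nucleatum tumor was above every control. Its log2 difference was 1.97 (SE 1.07, limma adjusted p = 0.115). Pvalb, the calcium buffer parvalbumin of fast fibers, had 548 reads in tumor 36 and 37 in tumor 37, and myoglobin (Mb), the oxygen store of oxidative fibers, had 137 and 17. Both were at 0 in the other 6 tumors. Trdn, triadin of the calcium release complex, had 516 reads in tumor 36 and at most 7 in any other. Cox6a2, the striated muscle form of a cytochrome oxidase subunit, had 0.0705 to 0.844 FPKM in the controls and 4.35, 0.162, 0.908 and 0.875 with F. nucleatum. Only 52.3% of its normalized counts lay in tumor 36, and tumor 37 lay inside the control range.

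Of the 2 myogenic regulators in the table, Myf6, a factor of mature fibers, had 129 reads in tumor 36 and 5 in tumor 37. Myog, a factor of differentiating muscle cells, had the reverse order, with 5 reads in tumor 36 and 17 in tumor 37, and both were at 0 in the other 6. Chrna1 and Chrnd, subunits of the muscle acetylcholine receptor, were highest in tumor 37. Chrna1 had 0.116 to 0.468 FPKM in the controls and 0.695, 0.752, 0.290 and 0.471 with F. nucleatum, and tumor 39 lay inside the control range. Its share of normalized counts was 21.3% in tumor 36 and 24.1% in tumor 37, while that of Ckm was 94.3% and 4.85%. The order of tumors was not tested for these genes.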
